A study of Homo sapiens with 8 samples.

Results

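Antisense transcripts are RNAs read from the strand opposite a gene, and their symbols carry that gene's name with the ending -AS1, -AS2 or -AS3. In Panc1 cells 353 genes with such an ending were listed among 15176 genes, and the 199 whose mean level over all libraries was above 0 log2 CPM (log2 of the read count scaled by the size of the library) are described here, each beside the partner gene named before the ending. The other 154 were at or below that level and were not tested. With the same filter 13112 genes of every kind were tested.

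Panc1 is an established human pancreatic ductal adenocarcinoma line, and its RNA was sequenced in 8 libraries of 3 groups. The groups were cells with an siRNA against SF3B1 at 1% oxygen (siSF3B1 hypoxia, replicates 3, 6 and 9), cells with a control siRNA at 1% oxygen (siCtrl hypoxia, replicates 2, 5 and 8) and cells with a control siRNA at 21% oxygen (siCtrl normoxia, replicates 1 and 4), with replicates numbered as in the sample titles. The time at 1% oxygen was 8 hours for siSF3B1 cells per the labels, whose wording does not settle the time of siCtrl cells. All groups come from 1 line and all received an siRNA, no siSF3B1 group at 21% oxygen was analysed here, and the labels name no separate cultures, so a p-value reflects only how far these libraries spread, and that spread may be technical.

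Many antisense transcripts start close to their partner's promoter and run away from it, so that both genes share an open promoter region, while others begin inside the partner or run into its end. Some are known to act on the partner locus, by recruiting chromatin regulators or by hindering transcription or RNA processing, and many others have no described role. SF3B1 belongs to the U2 snRNP of the spliceosome and helps it to find the branch point of an intron, and cells at low oxygen stabilise the HIF transcription factors, which bind short DNA motifs near their target genes.

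SF3B1 itself had 5.44, 5.18 and 5.41 log2 CPM in the siSF3B1 hypoxia libraries, against 8.86, 8.74 and 8.70 log2 CPM in the siCtrl hypoxia libraries and 8.88 and 8.87 log2 CPM in the siCtrl normoxia libraries. Its log2 level fell with the siRNA by 3.42 (SE 0.0776, limma adjusted p = 9.69e-09), and in hypoxia its difference was -0.11 (limma adjusted p = 0.554). The libraries held 20496492 to 25257173 reads. Of 12 ductal markers 10 were tested, and their summed level was 10790 to 13310 CPM in siSF3B1 hypoxia, 7178 to 8399 CPM in siCtrl hypoxia and 7277 to 8127 CPM in siCtrl normoxia. None of the acinar, islet or endothelial markers was listed, and 3 of 6 fibroblast markers (ACTA2, COL1A1 and PDGFRB) summed to 14.05 to 37.59 CPM in siSF3B1 hypoxia, 23.84 to 56.05 CPM in siCtrl hypoxia and 18.01 to 40.04 CPM in siCtrl normoxia. Of 5 leukocyte markers CD68 was listed, at 167 to 229 CPM in siSF3B1 hypoxia, 121 to 166 CPM in siCtrl hypoxia and 105 to 149 CPM in siCtrl normoxia. The part of these marker differences in the results on antisense transcripts was not tested. In such bulk RNA, fewer cells that express a gene and less RNA per cell cannot be told apart.

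Most antisense transcripts had few reads. Their mean level ranged from 0.01 log2 CPM for PAXBP1-AS1 to 7.23 log2 CPM for FGD5-AS1, with a median of 1.40 log2 CPM, and 174 of 199 lay at or below 3 log2 CPM. The median over their partners was 5.09 log2 CPM and over all tested genes 4.83 log2 CPM, values that are not scaled by gene length. Every one had at least 6 reads in every library, the lowest being RBM5-AS1 in siSF3B1 replicate 3, and the median of their mean read count per library was 62.1. Just inside the filter lay PAXBP1-AS1 (0.01), TBX2-AS1 (0.01) and A1BG-AS1 (0.03 log2 CPM), and just outside it JMJD1C-AS1 (-0.01), RPARP-AS1 (-0.01) and ARRDC3-AS1 (-0.02 log2 CPM). The median SD between libraries of a group was 0.206 for the antisense transcripts in siSF3B1 hypoxia, 0.182 in siCtrl hypoxia and 0.153 in siCtrl normoxia, all in log2 CPM. For their partners it was 0.134 in siSF3B1 hypoxia, 0.105 in siCtrl hypoxia and 0.079 in siCtrl normoxia.

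Of the 199 antisense transcripts, 179 had a tested partner, 11 had a partner that was listed at or below the filter, and 9 had no partner in the table. The 179 pairs held 176 different partners, since TSPEAR, DLGAP1 and PAXIP1 each have 2 tested antisense transcripts. In the GENCODE annotation (GRCh38) 195 antisense transcripts and both genes of 186 pairs could be placed, and in all 186 pairs the genes lie on opposite strands. Head-to-head pairs, whose start sites lie within 1000 bases of each other, made up 75 of them, with a median distance of 339 bases. In 24 pairs the 5′ ends overlapped with starts farther apart, in 40 the 3′ ends overlapped, in 28 the antisense transcript lay inside the partner, in 16 the partner lay inside the antisense transcript, and in 3 the genes lay apart. Exons of the pair overlapped in 131 pairs and did not in 55. The library kit keeps strand per the labels, but the strand setting of the counting is not given in these sources. Where exons overlap, reads of an antisense transcript and of its partner cannot be told apart with certainty. The same holds for unspliced partner reads where an antisense exon lies over a partner intron. In RefSeq 13 of the 199 now carry the ending -DT, for divergent transcript, in place of -AS.

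Between siCtrl hypoxia and siCtrl normoxia 6 of the 199 antisense transcripts rose and 2 fell, or 4.02%, against 5.65% of all tested genes (4.35% higher and 1.30% lower; limma, adjusted p under 0.05). Among other genes at or below 3 log2 CPM 3.94% were called (3.24% higher and 0.702% lower), close to the share of antisense transcripts, and above that level 6.20% (4.71% higher and 1.49% lower). The median difference on the log2 scale was 0.06 over the antisense transcripts, -0.03 over their partners and -0.02 over all tested genes. Over the other genes at or below 3 log2 CPM it was 0.02. With quantile normalization these 4 medians were -0.01, -0.06, -0.04 and -0.05, in the same order. The 3 siCtrl hypoxia libraries lay wholly above both siCtrl normoxia libraries for 53 antisense transcripts (26.6%, against 20.0% of all tested genes) and wholly below for 25 (12.6%, against 22.7%). Of the partners 8 of 179 were higher and 4 lower when counted per pair, with TSPEAR in 2 pairs. With a block for the library-number sets described under the processing, 8 antisense transcripts were higher and 4 lower (6.03%), against 12.5% of all tested genes and 7.92% of the other genes at or below 3 log2 CPM, and 15 partners were higher and 8 lower per pair. The 4 antisense transcripts called with the block and not without it, named after their values were seen, were CCDC18-AS1 and MIR1-1HG-AS1, higher by 0.66 and 0.37 (limma adjusted p = 0.0481 and 0.00782), and PTOV1-AS2 and MAGI2-AS3, with differences of -0.66 and -0.35 (0.0292 and 0.0169). Without the block, in 4 pairs both genes rose (TSPEAR with each of its 2 antisense transcripts, BHLHE40 and STEAP3), in 1 pair they went opposite ways (AFAP1), and in 164 pairs neither gene was called.

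The largest rises in hypoxia were on chromosome 21, where TSPEAR-AS1 and TSPEAR-AS2 lie inside TSPEAR, a gene for a secreted protein with EAR repeats that is linked to tooth and hair development. TSPEAR-AS2 (chr21:44517216-44525952, plus strand) had 2.85, 2.66 and 3.00 log2 CPM in siCtrl hypoxia, against -0.24 and -0.18 log2 CPM in siCtrl normoxia. TSPEAR-AS1 (chr21:44506807-44516575, plus strand) had 3.96, 3.91 and 4.20 log2 CPM in siCtrl hypoxia, against 1.11 and 1.46 log2 CPM in siCtrl normoxia. TSPEAR (chr21:44497892-44711580, minus strand) had 2.57, 2.88 and 2.99 log2 CPM in siCtrl hypoxia, against -0.39 and -0.45 log2 CPM in siCtrl normoxia. In all 3 genes every hypoxic library lay above every normoxic one. TSPEAR-AS2 rose by 3.04 log2 units (SE 0.271, limma adjusted p = 9.95e-05), TSPEAR-AS1 by 2.74 (SE 0.18, 1.5e-05) and TSPEAR by 3.23 (SE 0.264, 5.76e-05). The differences of the antisense-to-partner log2 ratio between the groups were small beside these, -0.19 (SE 0.338) for TSPEAR-AS2 and -0.49 (SE 0.208) for TSPEAR-AS1. Exons of TSPEAR-AS1 overlap those of TSPEAR by 320 bases, 13.6% of its exon bases, and those of TSPEAR-AS2 by 16 bases. The rest of their exons lies over TSPEAR introns. With the strand setting unknown, the values of the 3 genes are therefore uncertain.

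**Figure D1:**
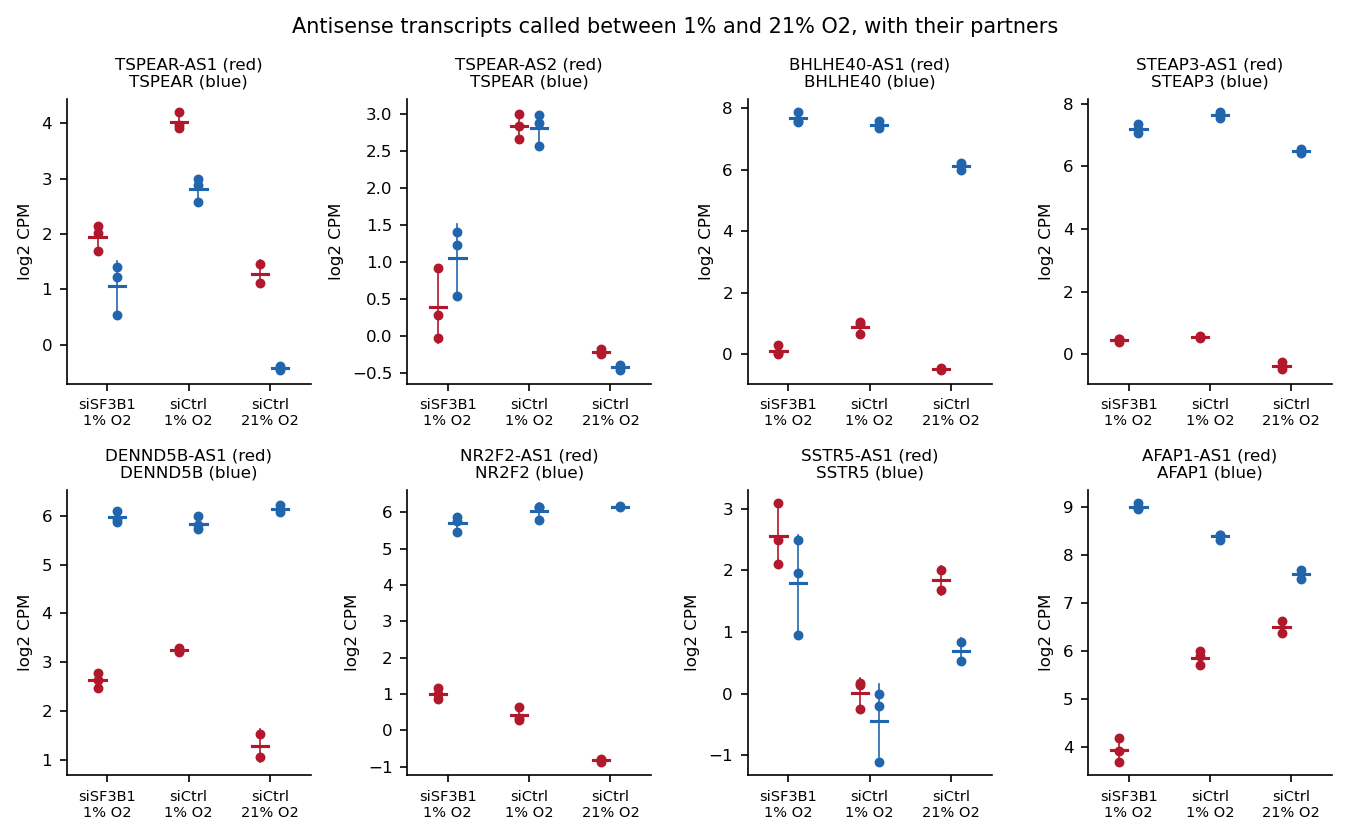
Level in log2 CPM of each of the 8 antisense transcripts called in hypoxia (red) and of its partner (blue) in the 3 groups, with 1 point per library, the group mean as a horizontal line and 1 SD as a vertical line. TSPEAR-AS1, TSPEAR-AS2 and TSPEAR are high in the siCtrl hypoxia libraries and lower in both other groups, SSTR5-AS1 shows the opposite order, and AFAP1-AS1 falls to its lowest values in siSF3B1 hypoxia while AFAP1 is highest there.

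BHLHE40 encodes a basic helix-loop-helix repressor and is a known hypoxia-induced gene, and its antisense transcript starts within the BHLHE40 gene and runs the other way. BHLHE40-AS1 (chr3:4896809-4979961, minus strand) had 1.03, 0.64 and 0.98 log2 CPM in siCtrl hypoxia (45, 32 and 45 reads), against -0.47 and -0.53 log2 CPM in siCtrl normoxia (15 and 16 reads). BHLHE40 (chr3:4979116-4985323, plus strand) had 7.45, 7.36 and 7.60 log2 CPM in siCtrl hypoxia, against 6.23 and 6.0 log2 CPM in siCtrl normoxia. Both genes were higher in every hypoxic library, by nearly the same amount: BHLHE40-AS1 rose by 1.38 log2 units (SE 0.241, limma adjusted p = 0.00813) and BHLHE40 by 1.35 (SE 0.116, 7.55e-05), and the antisense-to-partner log2 ratio differed by 0.02 (SE 0.184). In GENCODE the pair shares 4 exon bases, 0.15% of those of BHLHE40-AS1, and the unknown strand setting bears on reads there. The call of BHLHE40-AS1 was lost without siCtrl normoxia replicate 1 or replicate 4. Either fit left 1 normoxia library, and the differences were 1.41 and 1.35.

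The promoters of this pair are printed because both genes rose together and their start sites lie close to each other, 845 bases apart in GENCODE and 524 bases apart in RefSeq, which starts BHLHE40 farther downstream. Sequences are from RefSeq (GRCh38.p14), run 5′ to 3′ on the strand of the gene from 250 bases before to 50 bases after its RefSeq start, and capitals mark the core of the HIF response element, ACGTG or GCGTG, on either strand (CACGT and CACGC are the same motifs on the other strand, and CACGTG holds ACGTG on both). BHLHE40 covers chr3:4979187-4979486 on the plus strand and BHLHE40-AS1 chr3:4979912-4980211 on the minus strand.
BHLHE40: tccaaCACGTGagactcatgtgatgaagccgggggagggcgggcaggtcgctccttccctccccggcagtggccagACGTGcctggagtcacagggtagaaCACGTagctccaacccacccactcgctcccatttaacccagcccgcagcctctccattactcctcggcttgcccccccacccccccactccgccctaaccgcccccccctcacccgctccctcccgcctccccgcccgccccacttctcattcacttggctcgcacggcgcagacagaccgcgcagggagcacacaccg
BHLHE40-AS1: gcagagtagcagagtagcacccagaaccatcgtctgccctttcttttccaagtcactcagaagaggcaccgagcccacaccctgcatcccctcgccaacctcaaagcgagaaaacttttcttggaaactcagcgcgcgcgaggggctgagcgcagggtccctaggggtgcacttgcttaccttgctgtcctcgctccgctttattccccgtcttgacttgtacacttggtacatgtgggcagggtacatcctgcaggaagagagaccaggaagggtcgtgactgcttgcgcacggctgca
The BHLHE40 window held 4 matches in 3 stretches, and the BHLHE40-AS1 window held none of these letters. At least 1 match was present in 48.4% of 27305 RefSeq promoters, in 64.2% of the 10399 promoters of tested genes that had an entry, in 65.0% of 160 antisense promoters and in 66.4% of 152 partner promoters, so a match is common and is given as a description only. Of the other antisense transcripts that rose in hypoxia, TSPEAR-AS2 (chr21:44516965-44517264, plus strand) and DENND5B-AS1 (chr12:31589673-31589972, plus strand) are printed as the pair of single-match windows among the 3 largest rises.
TSPEAR-AS2: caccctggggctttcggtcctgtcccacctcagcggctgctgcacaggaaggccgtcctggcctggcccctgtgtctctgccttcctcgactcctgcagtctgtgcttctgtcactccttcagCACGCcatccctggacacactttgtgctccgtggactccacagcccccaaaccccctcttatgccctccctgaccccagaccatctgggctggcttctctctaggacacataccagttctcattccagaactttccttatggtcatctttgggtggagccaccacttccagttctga
DENND5B-AS1: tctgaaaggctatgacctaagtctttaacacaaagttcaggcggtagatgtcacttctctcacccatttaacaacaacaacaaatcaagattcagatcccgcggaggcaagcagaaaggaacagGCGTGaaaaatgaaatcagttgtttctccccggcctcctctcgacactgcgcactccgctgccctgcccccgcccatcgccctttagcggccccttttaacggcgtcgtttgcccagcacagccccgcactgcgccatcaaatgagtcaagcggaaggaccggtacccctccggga
Each held 1 match to GCGTG, on the opposite strand in TSPEAR-AS2 and on the strand of the gene in DENND5B-AS1. The window of TSPEAR-AS1 held 0, and RefSeq starts this gene at chr21:44506044, upstream of the GENCODE start given above. Of the other antisense transcripts that rose, the window of NR2F2-AS1 held 1 match and that of STEAP3-AS1 held 0. The window of SSTR5-AS1, which fell in hypoxia, held 2 matches, and AFAP1-AS1 had no entry.

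DENND5B-AS1 and NR2F2-AS1 rose in hypoxia without a call for the partner, and neither shares exon bases with it. DENND5B-AS1 (chr12:31589923-31615666, plus strand) overlaps the 5′ end of DENND5B, a DENN domain protein that acts on Rab GTPases, by 1175 bases. It had 3.25, 3.21 and 3.29 log2 CPM in siCtrl hypoxia, against 1.06 and 1.53 log2 CPM in siCtrl normoxia, so the groups did not overlap, and it rose by 1.96 log2 units (SE 0.171, limma adjusted p = 8.47e-05). DENND5B had 5.72, 5.99 and 5.82 log2 CPM in siCtrl hypoxia, against 6.07 and 6.22 log2 CPM in siCtrl normoxia, a difference of -0.31 (95% interval -0.53 to -0.09, limma adjusted p = 0.117). With the block DENND5B was lower by -0.28 (limma adjusted p = 0.0176). The antisense-to-partner log2 ratio of the pair was higher in siCtrl hypoxia by 2.26 (SE 0.163).

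NR2F2-AS1 (chr15:96110040-96327361, minus strand) starts 1423 bases from NR2F2, which encodes the orphan nuclear receptor COUP-TFII. It had 0.33, 0.64 and 0.28 log2 CPM in siCtrl hypoxia (27, 32 and 27 reads), against -0.85 and -0.79 log2 CPM in siCtrl normoxia (11 and 13 reads). It rose by 1.24 log2 units (SE 0.233, limma adjusted p = 0.0124). The call was lost without siCtrl normoxia replicate 1 or replicate 4, which left 1 normoxia library and differences of 1.20 and 1.27. NR2F2 had 6.16, 6.15 and 5.77 log2 CPM in siCtrl hypoxia, against 6.18 and 6.14 log2 CPM in siCtrl normoxia, and the groups overlapped (difference -0.13, 95% interval -0.45 to 0.19, limma adjusted p = 0.662).

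STEAP3 encodes an endosomal ferrireductase that serves iron uptake, and STEAP3-AS1 (chr2:119244422-119249071, minus strand) lies inside it. STEAP3-AS1 had 0.52, 0.59 and 0.55 log2 CPM in siCtrl hypoxia (31, 31 and 33 reads), against -0.47 and -0.24 log2 CPM in siCtrl normoxia (15 and 20 reads), and rose by 0.91 log2 units (SE 0.22, limma adjusted p = 0.0401). STEAP3 had 7.66, 7.53 and 7.72 log2 CPM in siCtrl hypoxia, against 6.43 and 6.54 log2 CPM in siCtrl normoxia, and rose by 1.15 (SE 0.092, 5.18e-05). Neither gene's groups overlapped, but the antisense call was lost without siCtrl hypoxia replicate 2, 5 or 8 or siSF3B1 replicate 9 (limma adjusted p = 0.105, 0.096, 0.12 and 0.0601). It was also lost without siCtrl normoxia replicate 1 or 4, which left 1 normoxia library and differences of 0.80 and 1.02. Exons of the pair overlap by 500 bases, 15.5% of the antisense exon bases, so the STEAP3-AS1 value is uncertain.

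The 2 antisense transcripts that fell in hypoxia were SSTR5-AS1 and AFAP1-AS1. SSTR5-AS1 (chr16:1064093-1078731, minus strand) starts 50 bases from SSTR5, a somatostatin receptor gene, and shares no exon base with it. It had 0.17, 0.13 and -0.25 log2 CPM in siCtrl hypoxia (24, 22 and 18 reads), against 2.01 and 1.68 log2 CPM in siCtrl normoxia (93 and 82 reads). It fell by 1.83 log2 units (SE 0.284, limma adjusted p = 0.00399). The call was lost without siCtrl normoxia replicate 1, which left 1 normoxia library and a difference of -1.66. SSTR5 had 0.00, -0.21 and -1.11 log2 CPM in siCtrl hypoxia, against 0.53 and 0.84 log2 CPM in siCtrl normoxia. Every hypoxic library of SSTR5 was also below the normoxic ones, but its difference of -1.13 did not pass the test (95% interval -2.12 to -0.13, limma adjusted p = 0.198).

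AFAP1-AS1 (chr4:7754090-7778928, plus strand) is a long noncoding RNA described in pancreatic and oesophageal tumours, and its partner AFAP1 (chr4:7758714-7939926, minus strand) encodes an actin filament-binding adaptor. AFAP1-AS1 had 6.0, 5.88 and 5.69 log2 CPM in siCtrl hypoxia, against 6.62 and 6.36 log2 CPM in siCtrl normoxia. AFAP1 had 8.31, 8.41 and 8.42 log2 CPM in siCtrl hypoxia, against 7.50 and 7.68 log2 CPM in siCtrl normoxia. The groups did not overlap in either gene and they moved apart: AFAP1-AS1 fell by 0.63 log2 units (SE 0.148, limma adjusted p = 0.0352) and AFAP1 rose by 0.79 (SE 0.074, 0.000141). The antisense-to-partner log2 ratio differed by -1.42 (SE 0.248). The AFAP1-AS1 call was lost without limma's intensity trend (0.0833) and without any 1 of siCtrl hypoxia replicate 2, 5 or 8 (0.0569, 0.0721 and 0.124). It was also lost without siCtrl normoxia replicate 1 or 4, which left 1 normoxia library and differences of -0.51 and -0.76. Their exons overlap by 523 bases, 7.7% of the antisense exon bases.

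In 7 pairs the partner was called in hypoxia and the antisense transcript was not. SOCS2, a feedback inhibitor of cytokine and growth hormone signalling, fell by 0.81 (SE 0.102, limma adjusted p = 0.00107), while SOCS2-AS1 differed by -0.21 (95% interval -0.79 to 0.38). TBX2, a T-box repressor, fell by 0.72 (SE 0.104, 0.0026), while TBX2-AS1 differed by 0.30 (-0.60 to 1.21). GATA2, a zinc finger transcription factor, fell by 0.48 (0.0472) and EMC3, a subunit of the ER membrane protein complex, by 0.38 (0.0484). TMEM44 rose by 0.45, TBC1D8 by 0.39 and SCAMP1, a secretory carrier membrane protein, by 0.29. In the pairs of GATA2, EMC3, TMEM44, TBC1D8 and SCAMP1 the 95% interval of the antisense transcript included a change as large as the partner's. Without siCtrl normoxia replicate 1, which left 1 normoxia library, the calls of GATA2, EMC3, TMEM44, TBC1D8 and SCAMP1 were lost. Their differences were then -0.353, -0.40, 0.355, 0.318 and 0.24. Those of GATA2, EMC3 and SCAMP1 were also lost without siCtrl normoxia replicate 4 (differences -0.612, -0.353 and 0.338). They were lost too without siCtrl hypoxia replicate 2 (limma adjusted p = 0.116, 0.148 and 0.107) or 8 (0.154, 0.156 and 0.109) or siSF3B1 replicate 9 (0.0634, 0.0675 and 0.0549). The SCAMP1 call was lost without siCtrl hypoxia replicate 5 (0.0686), and that of TMEM44 without siCtrl hypoxia replicate 8 (0.0707). Without the intensity trend the calls of GATA2, EMC3 and SCAMP1 were lost too (0.103, 0.0863 and 0.0787), as were that of GATA2 with median centring (0.0586), that of EMC3 without the filter on low genes (0.0504) and that of SCAMP1 on plain read totals (0.0591). SOCS2 and TBX2 kept their calls in every fit.

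The siRNA against SF3B1 changed the level of 119 of the 199 antisense transcripts, and most of these fell. Between siSF3B1 hypoxia and siCtrl hypoxia 97 antisense transcripts fell (48.7%) and 22 rose (11.1%), while of all 13112 tested genes 66.0% were called, with 30.9% lower and 35.0% higher (limma, adjusted p under 0.05). With the block 131 antisense transcripts (65.8%) and 73.7% of all tested genes were called. The partners of the antisense transcripts resembled all tested genes, with 52 of 176 lower (29.5%) and 64 higher (36.4%). The median difference was -0.47 over the antisense transcripts and 0.03 over their partners per pair and over all tested genes on the log2 scale, and 147 of 199 antisense transcripts lay below 0, against 47.9% of all tested genes. The 3 siSF3B1 libraries lay wholly below the 3 siCtrl hypoxia libraries for 103 antisense transcripts (51.8%, against 32.1% of all tested genes) and wholly above for 26 (13.1%, against 36.4%). Together the 199 took 0.1096, 0.1037 and 0.1073% of the reads of the siSF3B1 hypoxia libraries, against 0.1388, 0.1312 and 0.1408% in the siCtrl hypoxia libraries and 0.1418 and 0.1294% in the siCtrl normoxia libraries.

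Other genes of a like level were split more evenly. At or below 3 log2 CPM 85 of 174 antisense transcripts fell (48.9%) and 16 rose (9.2%), while of 2993 other genes there 51.1% were called, 29.1% lower and 22.0% higher. Above 3 log2 CPM 12 of 25 antisense transcripts fell and 6 rose, while of 9920 other genes 70.6% were called, 31.1% lower and 39.5% higher. Other noncoding classes gave 12 lower and 1 higher of 27 divergent transcripts (-DT), 51 lower and 14 higher of 98 long intergenic RNAs (LINC), and 0 lower and 2 higher of 4 intronic transcripts (-IT). With quantile normalization 86 antisense transcripts were lower and 28 higher, with a median difference of -0.32, while the balance of the other genes at or below 3 log2 CPM turned round, to 23.4% lower and 26.8% higher, and 30.5% of all tested genes were lower and 34.4% higher. On plain read totals, under which the median difference of all tested genes was -0.10 in place of 0.03, 108 antisense transcripts were lower and 16 higher, 63 partners were lower and 47 higher per pair, and 37.8% of all tested genes were lower and 27.1% higher.

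**Figure D2:**
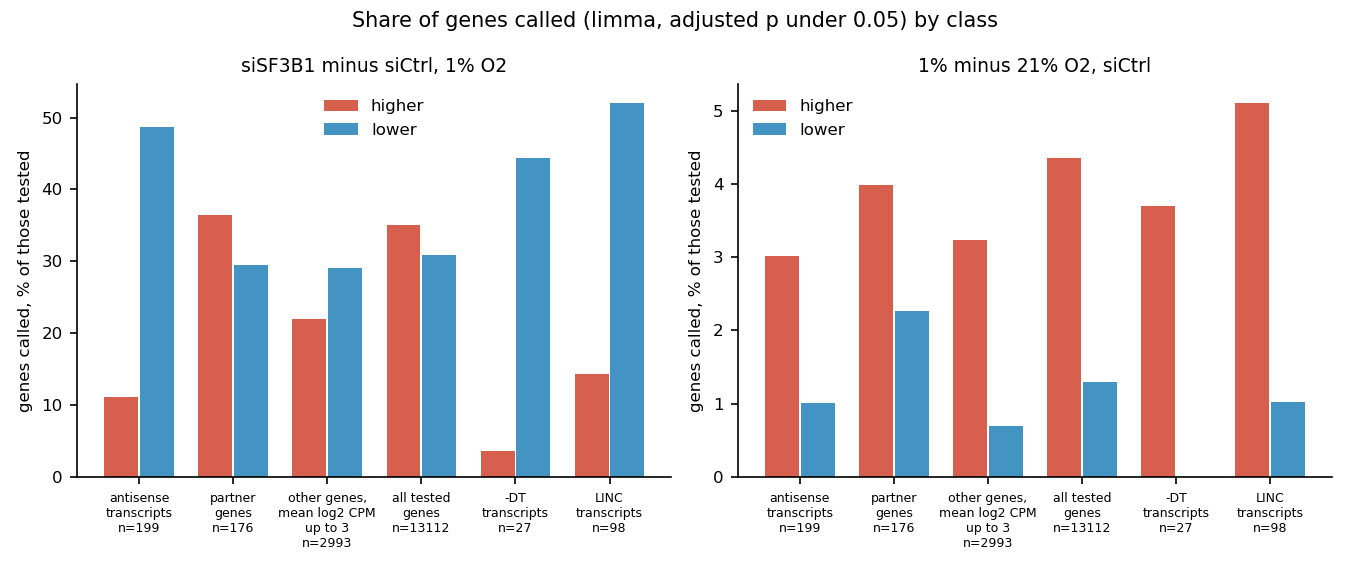
Share of tested genes called higher (red) and lower (blue) for antisense transcripts, their partners, other genes at or below 3 log2 CPM, all tested genes, -DT and LINC transcripts, with SF3B1 siRNA (left) and in hypoxia (right, on its own scale). With SF3B1 siRNA 48.7% of antisense transcripts were lower and 11.1% higher, against 30.9% and 35.0% of all tested genes; in hypoxia the shares were 1.01% and 3.02%, against 1.30% and 4.35%.

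Antisense transcripts fell more often than they rose in every arrangement of the pair that had more than 3 members. The balance of the partners, counted per pair, varied. Over all tested genes 30.9% were lower and 35.0% higher, and of other genes at or below 3 log2 CPM 29.1% and 22.0%. Among head-to-head antisense transcripts 40 of 75 fell (53.3%) and 4 rose (5.33%). Of their 72 tested partners 19 fell (26.4%) and 30 rose (41.7%). With overlapping 5′ ends 13 of 24 antisense transcripts fell (54.2%) and 3 rose (12.5%). Of 23 partners there 4 fell (17.4%) and 12 rose (52.2%). With overlapping 3′ ends 17 of 40 antisense transcripts fell (42.5%) and 7 rose (17.5%). Of 38 partners there 15 fell (39.5%) and 11 rose (28.9%). Inside the partner 13 of 28 antisense transcripts fell (46.4%) and 4 rose (14.3%). Of 26 partners there 10 fell (38.5%) and 4 rose (15.4%), the same direction as the antisense transcripts. TSPEAR, which fell, enters these partner counts in 2 pairs. Around the partner 8 of 16 antisense transcripts fell and 2 rose, and of 13 partners 4 fell and 4 rose. Antisense transcripts without exon overlap with the partner had 30 lower and 8 higher of 55, and those with overlap had 62 lower and 13 higher of 131. Some without exon overlap still lie over introns of the partner, such as PIK3CD-AS2 inside PIK3CD. The strand setting therefore bears on unspliced reads there too. Among 18 single-exon antisense transcripts, which have no annotated intron, 8 fell (44.4%) and 1 rose (5.56%). With 2 or 3 exon blocks 20 of 49 fell (40.8%) and 4 rose (8.16%). With 4 or more 66 of 128 fell (51.6%) and 17 rose (13.3%).

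**Figure D3:**
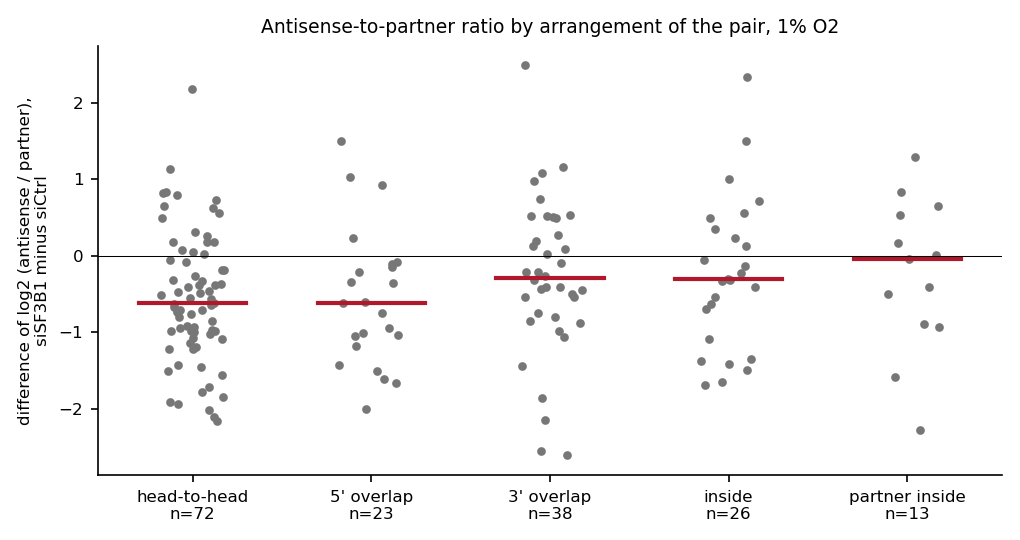
Difference between siSF3B1 hypoxia and siCtrl hypoxia in the log2 ratio of antisense transcript to partner, 1 point per pair with a tested partner, by arrangement of the pair, with the median as a red line. The median is -0.62 for head-to-head pairs (n = 72) and for 5′ overlap (n = 23), -0.29 for 3′ overlap (n = 38), -0.31 for antisense transcripts inside the partner (n = 26) and -0.05 where the partner lies inside (n = 13).

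Set against its own partner, an antisense transcript more often lost than gained in relative level with the siRNA. The difference of the antisense-to-partner log2 ratio had a median of -0.46 over 179 pairs (quartiles -0.997 and 0.168), with 125 pairs below 0 and 54 above. In hypoxia its median was 0.04, with 73 pairs below 0 and 106 above. The changes of the 2 genes of a pair were weakly related across the 179 pairs with SF3B1 siRNA (Pearson r = 0.216, Spearman rho = 0.131). In hypoxia r was 0.602 and rho 0.219, but TSPEAR, the partner with the largest rise, enters in 2 pairs, and without them, a setting chosen after the values were seen, r was 0.264 and rho 0.192. In hypoxia rho was 0.148 over the 121 pairs with exon overlap and 0.342 over the 54 without. All pairs share the same libraries.

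With SF3B1 siRNA both genes of a pair were called in 70 of the 179 pairs, 35 in the same direction and 35 in opposite directions. Of the 89 partners of a lower antisense transcript 34.8% were higher and 32.6% lower, close to the 35.8% and 30.2% of all 179 partners per pair, and of the 20 partners of a higher one 6 were higher and 4 lower. Of the pairs in opposite directions 31 had a lower antisense transcript and a higher partner, and 4 had a higher antisense transcript and a lower partner. Of the pairs in the same direction 29 fell and 6 rose. The antisense transcript fell with an uncalled partner in 29 further pairs and rose with one in 10, the partner alone rose in 27 and fell in 21, and neither gene was called in 22. Pairs with a lower antisense transcript and a higher partner were 31 of all 179 pairs and 16 of the 72 head-to-head pairs. They were 6 of 23 pairs with overlapping 5′ ends, 6 of 38 with overlapping 3′ ends and 2 of 26 inside the partner. Where the partner lay inside they were 0 of 13. Pairs without exon overlap gave 7 of 54 and pairs with it 23 of 121.

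**Figure D4:**
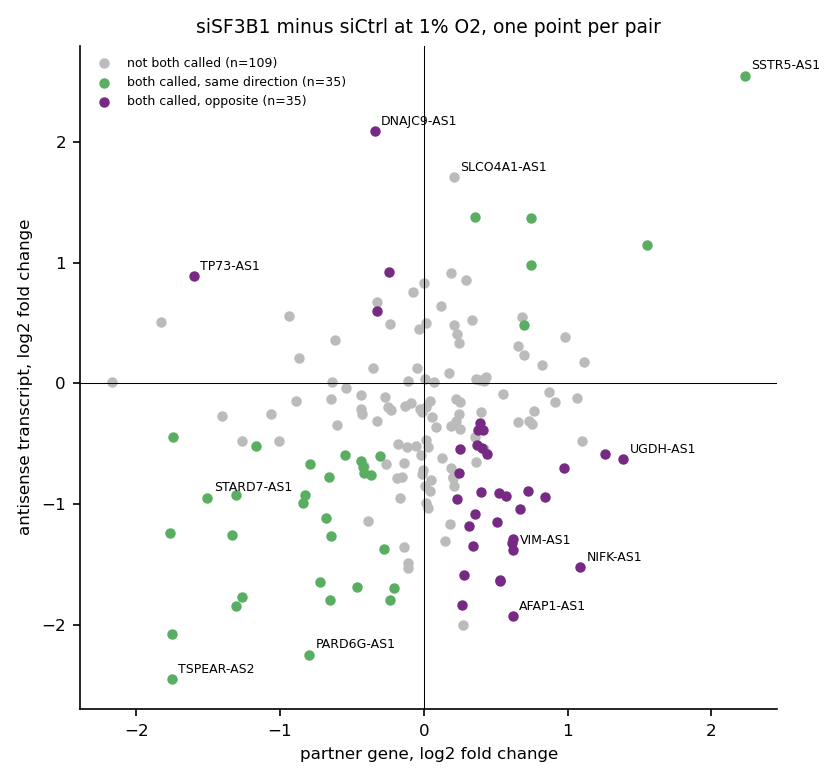
Log2 fold change with SF3B1 siRNA of each antisense transcript against that of its partner, 1 point per pair (n = 179), coloured by whether both genes were called in the same direction (green, 35), in opposite directions (purple, 35) or not both called (grey, 109). Most points lie below the horizontal line, while partners spread to both sides of the vertical line.

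AFAP1-AS1 had the largest fall among the 31 pairs with a rising partner. It had 4.19, 3.92 and 3.68 log2 CPM in siSF3B1 hypoxia (381, 318 and 243 reads), against the 5.69 to 6.0 log2 CPM given above for siCtrl hypoxia (1472, 1281 and 1234 reads). AFAP1 had 8.96, 8.98 and 9.07 log2 CPM in siSF3B1 hypoxia, against 8.31, 8.41 and 8.42 log2 CPM in siCtrl hypoxia. The groups did not overlap in either gene. AFAP1-AS1 fell by 1.93 log2 units (SE 0.133, limma adjusted p = 1.19e-06), AFAP1 rose by 0.62 (SE 0.066, 2.01e-05), and their log2 ratio differed by -2.55 (SE 0.222).

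VIM, ZEB1 and LOXL1 were also partners that rose beside a falling antisense transcript. VIM-AS1 (chr10:17214239-17229985, minus strand) had -1.10, -0.97 and -0.38 log2 CPM in siSF3B1 hypoxia (8, 9 and 13 reads), against 0.68, 0.68 and 0.33 log2 CPM in siCtrl hypoxia (35, 33 and 28 reads). VIM, the intermediate filament vimentin, had 12.11, 12.27 and 12.22 log2 CPM in siSF3B1 hypoxia, against 11.61, 11.61 and 11.52 log2 CPM in siCtrl hypoxia. Neither gene's groups overlapped: VIM-AS1 fell by 1.38 (SE 0.263, limma adjusted p = 0.00101) and VIM rose by 0.62 (SE 0.072, 3.52e-05). VIM-AS1 shares 641 exon bases with VIM, 32.2% of its own, so its value is uncertain. ZEB1-AS1 (chr10:31206278-31320447, minus strand) had 0.46, 0.72 and 0.59 log2 CPM in siSF3B1 hypoxia, against 1.47, 1.41 and 1.69 log2 CPM in siCtrl hypoxia. ZEB1, a repressor that drives epithelial-mesenchymal transition, had 5.99, 6.28 and 6.15 log2 CPM in siSF3B1 hypoxia, against 5.73, 5.51 and 5.46 log2 CPM in siCtrl hypoxia. ZEB1-AS1 fell by 0.93 (SE 0.173, 0.000835) and ZEB1 rose by 0.58 (SE 0.095, 0.000383), with no overlap between groups in either gene. LOXL1-AS1 fell by 0.70 (0.003) while LOXL1, a lysyl oxidase that crosslinks elastin, rose by 0.97 (0.000798).

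The partners NIFK, UGDH and SLC16A1 rose in the same way while their antisense transcripts fell. NIFK-AS1 (chr2:121649650-121728481, plus strand) had -0.01, -0.42 and 0.73 log2 CPM in siSF3B1 hypoxia, against 1.68, 1.43 and 1.74 log2 CPM in siCtrl hypoxia. NIFK, a nucleolar partner of Ki-67, had 6.32, 6.32 and 6.37 log2 CPM in siSF3B1 hypoxia, against 5.33, 5.26 and 5.15 log2 CPM in siCtrl hypoxia. NIFK-AS1 fell by 1.52 (SE 0.275, limma adjusted p = 0.000722) and NIFK rose by 1.09 (SE 0.068, 6.97e-07), and the log2 ratio of the pair differed by -2.61 (SE 0.313). UGDH-AS1 (chr4:39528019-39594707, plus strand), which starts 292 bases from UGDH, had 1.06, 1.05 and 1.60 log2 CPM in siSF3B1 hypoxia, against 1.88, 1.82 and 1.88 log2 CPM in siCtrl hypoxia. UGDH, the enzyme that makes UDP-glucuronate, had 9.21, 8.76 and 8.79 log2 CPM in siSF3B1 hypoxia, against 7.81, 7.45 and 7.34 log2 CPM in siCtrl hypoxia. UGDH-AS1 fell by 0.62 (SE 0.188, 0.0139) and UGDH rose by 1.39 (SE 0.155, 2.68e-05), with no overlap in either gene. SLC16A1-AS1 fell by 1.29 (0.000768) while SLC16A1, the lactate transporter MCT1, rose by 0.62 (3.85e-05).

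ZEB1-AS1, LOXL1-AS1 and SLC16A1-AS1 share 366, 335 and 175 exon bases with their partners, so their values are uncertain too. GATA2-AS1, RHPN1-AS1 and TMCC1-AS1 share no exon base with theirs. With the strand setting unknown, unspliced partner reads would still bear on any of their exons that lie over a partner intron. GATA2-AS1 fell by 0.89 while GATA2 rose by 0.72 (limma adjusted p = 0.000193 and 0.000207). RHPN1-AS1 fell by 0.94 while RHPN1 rose by 0.84 (0.00211 and 0.00247). TMCC1-AS1, now named TMCC1-DT, fell by 1.83 while TMCC1 rose by 0.27 (5.48e-05 and 0.00866). The call of TMCC1 was lost on plain read totals (0.122). TMEM9B-AS1 and TMEM9B share 221 exon bases and went the same opposite ways, by -1.04 and 0.67 (0.0008 and 9.26e-06).

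**Figure D5:**
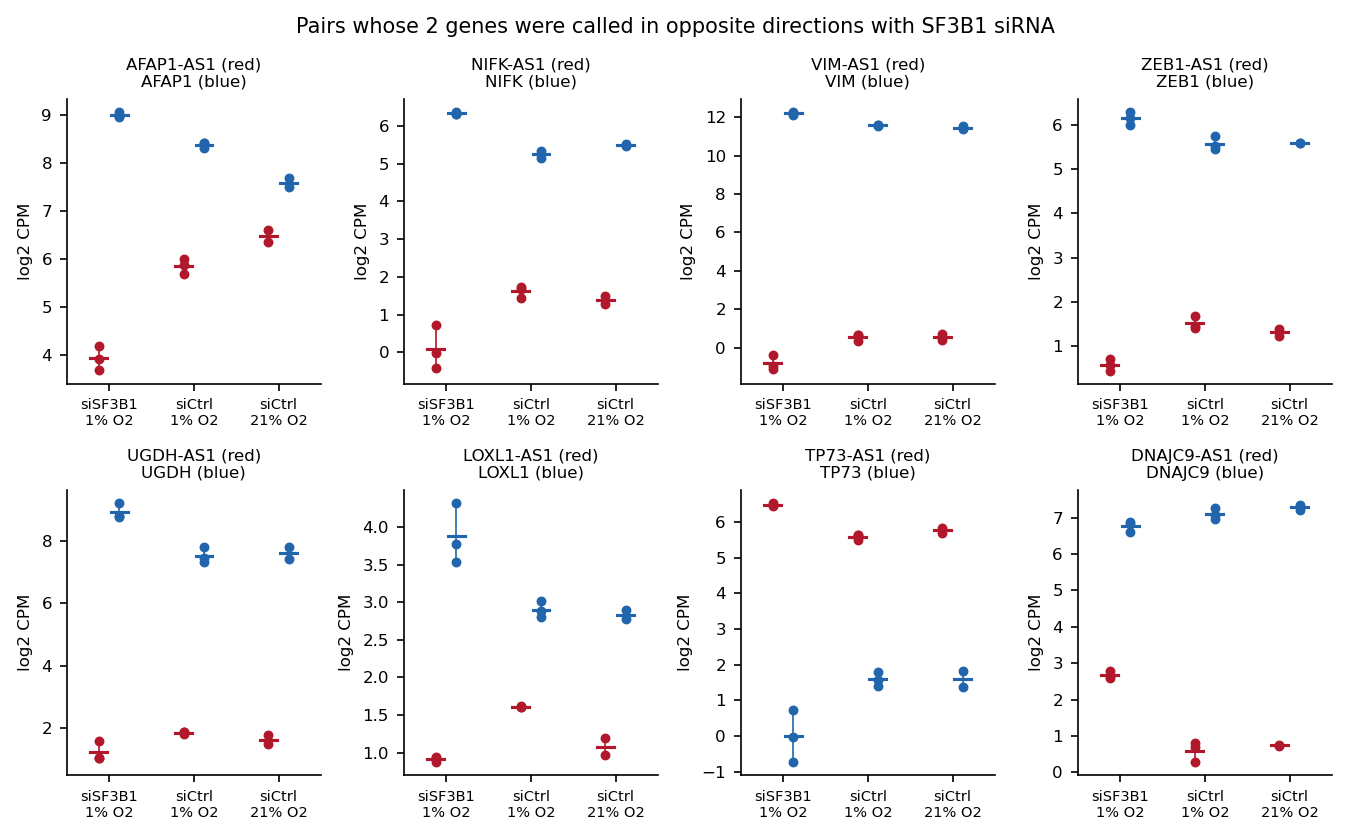
Level in log2 CPM of the antisense transcript (red) and the partner (blue) in the 3 groups for 8 pairs called in opposite directions with SF3B1 siRNA, with 1 point per library, the group mean as a horizontal line and 1 SD as a vertical line. In 6 pairs the antisense transcript is lowest and the partner highest in the siSF3B1 hypoxia libraries, and in the pairs of TP73 and DNAJC9 the order is turned round.

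In 4 pairs the antisense transcript rose and the partner fell, and those of TP73 and DNAJC9 had the largest differences. TP73-AS1 (chr1:3735511-3747373, minus strand, named GFOD3P in RefSeq) had 6.44, 6.47 and 6.52 log2 CPM in siSF3B1 hypoxia, against 5.64, 5.63 and 5.50 log2 CPM in siCtrl hypoxia. TP73, a transcription factor of the p53 family, had 0.73, -0.72 and -0.03 log2 CPM in siSF3B1 hypoxia, against 1.58, 1.80 and 1.40 log2 CPM in siCtrl hypoxia. Neither gene's groups overlapped: TP73-AS1 rose by 0.89 (SE 0.068, limma adjusted p = 2.23e-06) and TP73 fell by 1.60 (SE 0.328, 0.00159). Exons of this pair overlap by 633 bases, 6.5% of the antisense exon bases. DNAJC9-AS1 (chr10:73252791-73254349, plus strand) lies apart from DNAJC9, with starts 3929 bases from each other. It had 2.64, 2.60 and 2.78 log2 CPM in siSF3B1 hypoxia, against 0.68, 0.80 and 0.28 log2 CPM in siCtrl hypoxia, and rose by 2.09 (SE 0.179, 4.5e-06). DNAJC9, a histone co-chaperone, fell by 0.34 (SE 0.095, 0.00961). MAP3K20-AS1 rose by 0.92 (0.000831) while MAP3K20, a stress-activated kinase, fell by 0.24 (0.0458), a call lost under 8 alternatives, among them leaving out any library but siCtrl hypoxia replicate 8 and siSF3B1 replicate 6 (limma adjusted p up to 0.17). NR2F2-AS1 rose by 0.60 (0.028) while NR2F2 fell by 0.32 (0.0444), and both calls were lost without siCtrl hypoxia replicate 2 (0.0788 and 0.147) or siSF3B1 replicate 6 (0.0599 and 0.0516), that of NR2F2-AS1 also without siCtrl hypoxia replicate 8 (0.0864) or siSF3B1 replicate 3 (0.078) and on plain read totals (0.0701), and that of NR2F2 also without siCtrl normoxia replicate 1 or 4 (0.0596 and 0.0597), siCtrl hypoxia replicate 5 (0.141) or siSF3B1 replicate 9 (0.176), with median centring (0.0747) and without the trend (0.0789).

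Among the pairs called in the same direction SSTR5 and SSTR5-AS1 had the largest rise. SSTR5-AS1 had 3.09, 2.5 and 2.10 log2 CPM in siSF3B1 hypoxia, against -0.25 to 0.17 log2 CPM in siCtrl hypoxia, and SSTR5 had 2.49, 0.95 and 1.95 log2 CPM in siSF3B1 hypoxia, against -1.11 to 0.00 log2 CPM in siCtrl hypoxia. SSTR5-AS1 rose by 2.55 (SE 0.254, limma adjusted p = 1.25e-05) and SSTR5 by 2.24 (SE 0.401, 0.000667), and in neither gene did the groups overlap. SLFNL1-AS1 rose by 1.14 and SLFNL1 by 1.55 (8.5e-05 and 2.15e-05), THAP9-AS1 by 1.37 and THAP9, a transposase-derived protein, by 0.74 (9.91e-07 and 0.00127), UCKL1-AS1 by 1.38 and UCKL1, a uridine-cytidine kinase, by 0.36 (3.6e-05 and 0.019), and RUNDC3A-AS1 by 0.98 and RUNDC3A by 0.75 (0.00696 and 0.0166). The UCKL1 call was lost on plain read totals (limma adjusted p = 0.119) and without siCtrl hypoxia replicate 5 (0.0728) or siSF3B1 replicate 3 (0.0534) or 9 (0.079), and that of RUNDC3A without siCtrl hypoxia replicate 8 (0.0515) or siSF3B1 replicate 3 (0.0594). SLFNL1-AS1 shares 1298 exon bases with SLFNL1, 27% of its own, and THAP9-AS1 shares 199 with THAP9, so these values are uncertain.

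Of the pairs that fell together, the TSPEAR locus had the largest changes. TSPEAR-AS2 had 0.92, 0.29 and -0.03 log2 CPM in siSF3B1 hypoxia, against 2.66 to 3.00 log2 CPM in siCtrl hypoxia, and fell by 2.44 (SE 0.243, limma adjusted p = 1.21e-05). TSPEAR-AS1 had 2.14, 1.70 and 2.01 log2 CPM in siSF3B1 hypoxia, against 3.91 to 4.20 log2 CPM in siCtrl hypoxia, and fell by 2.07 (SE 0.161, 2.43e-06). TSPEAR had 1.41, 0.54 and 1.23 log2 CPM in siSF3B1 hypoxia, against 2.57 to 2.99 log2 CPM in siCtrl hypoxia, and fell by 1.75 (SE 0.236, 9.83e-05). No siSF3B1 library of these 3 genes reached the siCtrl hypoxia range.

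RBM5-AS1 (chr3:50099603-50100988, minus strand) is a single-exon transcript inside RBM5, which encodes an RNA-binding splicing regulator. It had -1.42, -0.02 and -0.19 log2 CPM in siSF3B1 hypoxia (6, 19 and 15 reads), against 1.25, 1.38 and 1.25 log2 CPM in siCtrl hypoxia (53, 55 and 55 reads). RBM5 had 4.18, 4.52 and 4.31 log2 CPM in siSF3B1 hypoxia, against 5.59, 5.66 and 5.69 log2 CPM in siCtrl hypoxia. Both fell without overlap between groups, RBM5-AS1 by 1.84 (SE 0.339, limma adjusted p = 0.000793) and RBM5 by 1.31 (SE 0.092, 1.34e-06), but 1007 of the antisense exon bases, 72.7%, overlap RBM5 exons, so the RBM5-AS1 value is uncertain. STARD7-AS1 fell by 0.94 and STARD7, a mitochondrial phosphatidylcholine transfer protein, by 1.5 (0.000526 and 1.9e-07). PTPRG-AS1 fell by 1.76 and PTPRG, a receptor tyrosine phosphatase, by 1.26 (9.74e-05 and 0.00297). USP2-AS1 fell by 1.26 and USP2, a deubiquitinase, by 1.34 (0.000553 and 0.00161), and this pair shares no exon base. FLG-AS1, named CCDST in RefSeq, fell by 1.24 and FLG, the epidermal protein filaggrin, by 1.76 (0.00167 and 3.85e-05). FLG-AS1 shares 704 exon bases with FLG. LHX4-AS1, which was not placed in the annotation, fell by 0.93 and LHX4, a LIM homeobox factor, by 1.31 (0.00162 and 0.00293).

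Further falls were larger in the antisense transcript than in its partner. PARD6G-AS1 (chr18:80147924-80178432, plus strand), which shares no exon base with the polarity gene PARD6G, had -0.50, -0.42 and -0.28 log2 CPM in siSF3B1 hypoxia (13, 14 and 14 reads), against 1.92, 1.78 and 1.83 log2 CPM in siCtrl hypoxia (85, 73 and 83 reads). It fell by 2.24 (SE 0.172, limma adjusted p = 2.23e-06) and PARD6G by 0.80 (SE 0.206, 0.00609), and their log2 ratio differed by -1.45 (SE 0.195). DDX11-AS1 fell by 1.79 and DDX11, a DNA helicase, by 0.65 (2.08e-05 and 5.32e-06), with starts 2 bases from each other. TMPO-AS1 fell by 1.68 and TMPO, a lamina-associated protein of the nuclear envelope, by 0.47 (3.23e-06 and 0.00413). TMPO-AS1 shares 713 exon bases with TMPO, 21.2% of its own, so its value is uncertain. UBL7-AS1, now UBL7-DT, fell by 1.79 and UBL7 by 0.23 (4.08e-05 and 0.0229; the UBL7 call was lost without siCtrl hypoxia replicate 8, 0.0855, or siSF3B1 replicate 9, 0.088), and TBC1D8-AS1 by 1.70 and TBC1D8 by 0.20 (5.57e-05 and 0.0138). GPRC5D-AS1 fell by 2.00 (1.86e-05), while GPRC5D, an orphan G protein-coupled receptor, differed by 0.27 (95% interval -0.39 to 0.94).

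Of the antisense transcripts that rose, SLCO4A1-AS1 (chr20:62663019-62666724, minus strand) did so with no call for its partner. It had 3.67, 3.49 and 3.6 log2 CPM in siSF3B1 hypoxia, against 2.00, 1.53 and 2.12 log2 CPM in siCtrl hypoxia, without overlap, and rose by 1.71 (SE 0.167, limma adjusted p = 1.1e-05). SLCO4A1, an organic anion transporter, had 9.25, 8.71 and 9.0 log2 CPM in siSF3B1 hypoxia, against 8.95, 8.54 and 8.85 log2 CPM in siCtrl hypoxia, with overlapping groups (0.21, 95% interval -0.14 to 0.55), and in the blocked fit it was called at the same size (0.00197). COL18A1-AS1 rose by 0.91, EPB41L4A-AS1 by 0.86 and SAP30L-AS1 by 0.83 (limma adjusted p = 0.00145, 0.000434 and 0.00338). Their partners, which encode collagen XVIII, a band 4.1 family protein and a Sin3 complex subunit, differed by 0.19, 0.29 and 0.00 and were not called, though COL18A1 was with the block (0.0191) and without siSF3B1 replicate 6 (0.0161).

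The hypoxia and siRNA comparisons share the siCtrl hypoxia libraries, so a high or low value there moves both in opposite ways, and their values are only set side by side. TSPEAR-AS1, TSPEAR-AS2, DENND5B-AS1 and BHLHE40-AS1 were higher in hypoxia (by 2.74, 3.04, 1.96 and 1.38) and lower with SF3B1 siRNA (by 2.07, 2.44, 0.62 and 0.77), and SSTR5-AS1 was lower in hypoxia (by 1.83) and higher with the siRNA (by 2.55). The siSF3B1 hypoxia levels of DENND5B-AS1 were 2.79, 2.64 and 2.47 log2 CPM, below all siCtrl hypoxia and above both siCtrl normoxia libraries, and those of BHLHE40-AS1 were -0.01, 0.29 and 0.05 log2 CPM, likewise between the siCtrl groups. BHLHE40 did not follow its antisense transcript, with 7.54, 7.60 and 7.88 log2 CPM in siSF3B1 hypoxia and a difference of 0.20 (95% interval -0.03 to 0.43, limma adjusted p = 0.107), which was called with the block (0.00802). NR2F2-AS1 was higher in both comparisons and AFAP1-AS1 lower in both.

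Of the 6 most abundant antisense transcripts, 3 fell with the siRNA (AFAP1-AS1, MIR1-1HG-AS1 and MAGI2-AS3), 2 rose (FGD5-AS1 and TP73-AS1) and OIP5-AS1 was not called. AFAP1-AS1 and TP73-AS1 are described above. FGD5-AS1 (chr3:14920347-14948424, minus strand) had 7.52, 7.53 and 7.68 log2 CPM in siSF3B1 hypoxia, 7.10, 6.99 and 7.14 log2 CPM in siCtrl hypoxia and 7.0 and 6.92 log2 CPM in siCtrl normoxia. It rose by 0.50 with the siRNA (SE 0.068, limma adjusted p = 9.91e-05), and in hypoxia it differed by 0.11 (95% interval -0.06 to 0.28). Its partner FGD5, a guanine exchange factor for Cdc42, was listed below the filter. MIR1-1HG-AS1, named CRMA in RefSeq, had 6.48, 5.82 and 6.08 log2 CPM in siSF3B1 hypoxia and 7.04, 6.73 and 6.92 log2 CPM in siCtrl hypoxia, and fell by 0.77 (0.00408). Its partner MIR1-1HG was also lower with the siRNA. That call was lost with quantile normalization (difference -0.54, limma adjusted p = 0.0636), with median centring (-0.63, 0.0535) and without any 1 of several libraries. MAGI2-AS3 had 4.55, 4.99 and 4.83 log2 CPM in siSF3B1 hypoxia, 5.43, 5.64 and 5.45 log2 CPM in siCtrl hypoxia and 5.80 and 5.92 log2 CPM in siCtrl normoxia. It fell by 0.71 with the siRNA (0.000292), while its head-to-head partner MAGI2, a scaffold protein, differed by -0.01 (-0.44 to 0.43). OIP5-AS1, also known as Cyrano, had 5.29, 5.35 and 5.28 log2 CPM in siSF3B1 hypoxia and 5.41, 5.33 and 5.64 log2 CPM in siCtrl hypoxia. Its difference of -0.15 (-0.34 to 0.04) was called on plain read totals only (0.0159), while OIP5, a centromere protein, fell by 0.89 (1.96e-05). OIP5-AS1 shares 470 exon bases with OIP5, so its value is uncertain.

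Of a list of 38 described antisense transcripts, most of them studied in tumours, 15 were tested and 9 more were listed below the filter, among them HIF1A-AS2, SLC2A1-AS1 and EGFR-AS1. No tested antisense transcript had a partner on a list of HIF targets and components that held VEGFA, SLC2A1, CA9 and HIF1A among others. Of the 15, 1 fell in hypoxia (AFAP1-AS1), and with SF3B1 siRNA 8 fell and 2 rose (FGD5-AS1 and THAP9-AS1), close to the 48.7% lower and 11.1% higher of all 199 antisense transcripts; over all tested genes 5.65% were called in hypoxia, and 30.9% were lower and 35.0% higher with the siRNA. Besides AFAP1-AS1, ZEB1-AS1 and TMPO-AS1, the lower ones were VPS9D1-AS1 (-0.66, limma adjusted p = 0.00293), NUTM2A-AS1 (-0.45, 0.00066), MCM3AP-AS1 (-0.92, 0.0103), TTN-AS1 (-0.64, 0.014) and HOXB-AS1 (-0.44, 0.0422). MCM3AP, an mRNA export factor, fell by 0.83 (1.01e-06) and TTN, titin, by 0.44 (0.0222), but VPS9D1 was not called (-0.26, 95% interval -0.56 to 0.04) except on plain read totals (0.0317) and without siSF3B1 replicate 3 (0.0299). NUTM2A fell by 1.74 (7.43e-05), more than its antisense transcript. The pair shares 289 exon bases, so the NUTM2A-AS1 value is uncertain. Of the exon bases of VPS9D1-AS1, SBF2-AS1 and PXN-AS1, 29.5%, 32.2% and 38.6% overlap exons of the partner, so these values are uncertain. The HOXB-AS1 call was lost in 8 alternatives (limma adjusted p up to 0.125, without siCtrl hypoxia replicate 8), 6 of which left out a library, and that of TTN-AS1 without siCtrl hypoxia replicate 2 (0.0595). The TTN call was lost with quantile normalization (0.052) and without siCtrl hypoxia replicate 8 (0.0758) or siSF3B1 replicate 3 (0.0579). NNT-AS1, TPT1-AS1, SBF2-AS1 and PXN-AS1 were not called (-0.25, -0.23, -0.15 and -0.35), and of these NNT-AS1 and TPT1-AS1 were called with the block (0.0378 and 0.0398) and on plain read totals (0.047 and 0.0229), and TPT1-AS1 without siSF3B1 replicate 9 (0.0488). Of their partners, NNT, a mitochondrial transhydrogenase, fell by 0.43 (0.00108), TPT1, the translationally controlled tumour protein, rose by 0.39 (0.000722), and SBF2 and PXN, the focal adhesion protein paxillin, rose by 0.25 and 0.19 (0.00599 and 0.0112), with both of the last calls lost on plain read totals (0.116 and 0.376).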

How the data were processed

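RNA of 8 Panc1 libraries was measured by sequencing. The authors deposited 1 table of log2 values, read counts scaled by library size (CPM) with a prior count. The submitters' processing notes list, without roles, STAR 2.7.0a, featureCounts, edgeR 3.24.3, SAMtools 1.9, Trimmomatic 0.35, Subread 1.5.0 and the build GRCh38.p13; they do not give the gene filter or the strand setting of counting. No symbol was present for 124 genes, which belong to no pair. The values stepped as whole reads: 100.0% were whole within 0.01 read, which gave 20496492 to 25257173 reads per library. From the deposited log2 values, genes with a mean above 0 were fitted with limma 3.58.1 in R 4.3.3 (1 mean per group, intensity trend, all 8 libraries sharing 1 estimate of the spread), two-sided, with Benjamini-Hochberg adjustment over 13112 genes and calls at adjusted p under 0.05. Differences of log2(value) with a prior understate changes of low genes. The model was also run on simulated counts with the same dispersion for every gene and no shared deviation between libraries. That run does not show how the model performs with the library-number sets described below. Partners were matched by symbol (189) or, for H1FX-AS1, by synonym, and geometry came from GENCODE release 29. SE of ratio differences have 5 residual degrees of freedom.

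The libraries fall by title number into the sets 1 to 3, 4 to 6 and 7 to 9. Same-set libraries of different groups deviated together (correlations 0.344 to 0.43 in all 7 such pairs), so the sets were used as a block in an alternative fit. Other alternatives were quantile normalization, plain read totals, median centring, a prior of 0.5 read, voom on recovered reads, no trend, no filter, a filter at mean 1 and leaving out each library. The members and gene lists were chosen with earlier results of these data known. Named were up to 12 antisense transcripts called in hypoxia, the 12 highest and 12 lowest with siRNA whose libraries did not overlap, up to 10 pairs per direction class, the 6 most abundant, those called in opposite directions in both comparisons and a list of described antisense transcripts; partners called alone in hypoxia were named after their values were seen.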

Additional observations from a re-analysis of the deposited data

How the results depend on the processing

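Of 117 named changes that were called, 94 kept the call under every alternative tried and 23 lost it under at least 1. Of 115 not called, 16 were called under at least 1. Genes were named mostly for calls or large changes in the main fit, so these counts do not speak for genes not named. PXN was reversed with SF3B1 siRNA under quantile normalization, -0.0189 in place of 0.19; the cause was not tested. With a filter at mean log2 CPM above 1, which tests fewer genes, 5 antisense transcripts were called in hypoxia and the pairs called in the same direction were 2 in hypoxia and 23 with siRNA. Without the intensity trend 0 pairs were called in opposite directions in hypoxia. With the library-number sets as a replicate block 12 antisense transcripts, 22 different partners and 2 pairs in opposite directions were called in hypoxia, where 12.5% of all tested genes were called, and 131 antisense transcripts (65.8%) with siRNA, where 73.7% of all tested genes were called.

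Leaving out 1 library, hypoxia gave 3 to 9 antisense transcripts, 6 to 12 partners, 2 to 4 pairs in the same direction and 0 to 1 in opposite directions. The fewest antisense transcripts came without siCtrl normoxia replicate 1 (3) or 4 (4), and the fewest partners without siCtrl normoxia replicate 1 (6) or siCtrl hypoxia replicate 8 (7). With SF3B1 siRNA the ranges were 102 to 117 antisense transcripts, 100 to 112 partners, 27 to 35 pairs in the same direction and 23 to 31 in opposite directions, the fewest without siCtrl hypoxia replicate 2. The hypoxia comparison has 2 normoxia libraries, so a fit without either of them rests on 1 normoxia library. The part of read depth in its number of calls was not tested.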
